A study of Mus musculus with 9 samples.

Results

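The nuclear genes of the oxidative phosphorylation system were examined in cultures of 5TGM1-Cas9, a multiple myeloma line from mouse that carries Cas9. Members were the rows of the expression tables whose symbol begins with Nduf, Uqcr, Cox4 to Cox8 or Atp5, or is *Cyc1* or *Cycs*, apart from symbols containing -ps, which mark pseudogenes. This gave 97 of 53077 rows, of which 41 were assigned to complex I, 8 to complex I assembly, 9 to complex III, 21 to complex IV and 17 to complex V (the ATP synthase), with cytochrome c (*Cycs*) kept apart. *Ndufa4* and *Ndufa4l2* were placed with complex IV, to which the NDUFA4 protein belongs. These numbers include a few rows of pseudogenes whose symbols lack -ps. RNA came from 3 groups with 3 biological replicates each. Control cultures received a gRNA against *Rosa26* (labelled WT), the *Slc2a1* gRNA cultures were targeted for the glucose transporter GLUT1, and the *Slc2a1/3/5/6/8* gRNA cultures for 5 sugar transporters. All groups shared the cell line, lentiviral Cas9 and a transduced gRNA. The study describes GLUT1-positive cells that remain in cultures given *Slc2a1* gRNAs, so the RNA came from a mixture of cells with and without the transporter. The 5-gRNA cultures descend from a line first edited at *Slc2a3/5/6/8* and sorted before the *Slc2a1* gRNA was added, so the loss of the other transporters and that history cannot be told apart.

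Oxidative phosphorylation takes place in the inner mitochondrial membrane. Complex I accepts electrons from NADH, complex III passes them from ubiquinol to cytochrome c, complex IV hands them to oxygen, and the proton gradient that results drives the ATP synthase. Most subunits are encoded in the nucleus, a few by the mitochondrial genome, and assembly factors help to build the complexes without staying in them. Plasma cells and myeloma cells, which secrete large amounts of antibody, can feed this system with pyruvate from glucose, with glutamine or with fatty acids.

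The libraries held 21838800 to 30537100 estimated counts, and members took 0.775% to 0.936% of them. The share from the mitochondrial genome ran from 4.84% to 11.1%. The mean fragment length implied by the deposited lengths was 295 to 303 bases in 8 libraries and 272 in 5-gRNA replicate 3. *Slc2a1* itself was at 59.5, 26.9 and 32.9 TPM (transcript counts per length, scaled to the same total in each sample) in the control. It was at 37.1, 28.3 and 31.4 TPM in the *Slc2a1* gRNA cultures and 24.1, 31.5 and 19.1 in the 5-gRNA cultures. Its TPM thus overlapped between groups. Its estimated counts, not adjusted for library totals, did not overlap. They were 2613 to 5683 in the control, 2159 to 2552 with the *Slc2a1* gRNA and 1494 to 2137 with the 5 gRNAs. The paper reports a significant reduction of this transcript in the deleted cultures relative to the control. No test of *Slc2a1* is given here. Of the plasma cell markers, 7 of 9 averaged over 1 TPM, against 0 of 6 T cell, 0 of 5 stromal and 1 of 6 myeloid markers. The summed myeloid markers were at 57.0 to 97.5 TPM in the control, 31.1 to 47.2 in the *Slc2a1* gRNA and 33.3 to 44.2 in the 5-gRNA cultures, and *Cd68* was the myeloid marker called, lower with the *Slc2a1* gRNA (log2 fold change -0.80) and with the 5 gRNAs (-0.92) than in the control, while the other one tested, *Adgre1*, was not called (1.34 and -1.06). The summed plasma cell markers overlapped between groups (672 to 1100 TPM), and of the 8 tested only *Jchain*, which joins antibody multimers, was called. It was lower with the *Slc2a1* gRNA (-1.33) and higher with the 5 gRNAs (0.59) than in the control, and the list's medians were -0.36 (3 of 8 positive) and 0.13 (5 of 8). The part of these markers in the results was not tested.

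The promoters of many respiratory genes are known to carry sites for ETS-family factors such as GABPA (NRF-2), for NRF1 and for YY1. RefSeq (GRCm38.p6) promoter windows of 300 bases, from 250 before to 50 after a start site, were available for 75 of the 97 members, in 80 windows. On either strand, the ETS core CCGGAAG occurred in 17 of them (21.2%, against 8.86% of all 32851 windows), a part of the NRF1 site, GCATGCGC, in 12 (15.0%, against 2.71%) and the YY1 core AAGATGG in 12 (15.0%, against 6.34%). The ETS and YY1 cores can overlap by their shared letters AAG. At least 1 of the 3 motifs stood in 35 member windows (43.8%, against 16.6%). The median GC content was 58.0% in the members' windows and 52.7% in all windows. Matches are descriptions of sequence, and the motifs were not adjusted for GC content. The 150 bases before the start site are shown for 4 of the 9 members that changed in a comparison described further on, those with a motif in this stretch, with the motifs in capitals. They are *Uqcrh* (chr4:116075071-116075220, minus strand, reverse complement of the ETS core beginning 10 bases before the start), *Atp5j* (chr16:84834977-84835126, minus strand, YY1 core 88 and ETS core 61 bases before the start), *Ndufb7* (chr8:83566608-83566757, plus strand, ETS core 20 bases before the start) and *Ndufaf4* (chr4:24897933-24898082, plus strand, overlapping NRF1 matches on opposite strands 113 and 111 bases before the start).
Uqcrh: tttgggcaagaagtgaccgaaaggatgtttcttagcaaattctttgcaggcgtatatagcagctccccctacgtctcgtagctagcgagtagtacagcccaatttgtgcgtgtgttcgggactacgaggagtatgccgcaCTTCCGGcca
Atp5j: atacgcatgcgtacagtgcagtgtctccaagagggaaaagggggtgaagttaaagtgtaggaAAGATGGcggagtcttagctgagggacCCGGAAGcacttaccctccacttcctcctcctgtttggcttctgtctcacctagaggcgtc
Ndufb7: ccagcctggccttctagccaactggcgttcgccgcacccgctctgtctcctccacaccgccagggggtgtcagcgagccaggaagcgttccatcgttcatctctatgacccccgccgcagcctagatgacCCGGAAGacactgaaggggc
Ndufaf4: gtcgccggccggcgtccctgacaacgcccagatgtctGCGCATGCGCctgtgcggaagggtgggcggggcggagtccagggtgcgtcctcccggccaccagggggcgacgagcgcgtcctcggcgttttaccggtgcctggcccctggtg
The *Atp5j* window is 1 of the listed start sites of that gene, shown because the other held no match. The full *Ndufaf4* window holds a further NRF1 match that begins at base 2 of the transcript. No match to these letters was present in the windows of *Cox7a2*, *Atp5g3* and *Ndufa13*.

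The respiratory genes were transcribed at high levels in these cells. Averaged over the control replicates, 84 of 97 members reached 10 TPM and 51 reached 100 TPM. The median over the 89 members that passed the filter on low counts was 135 TPM, against 8.69 TPM over all 13834 genes tested. TPM is scaled per transcript length, so levels of different genes can be set side by side. By complex the median control level was 102 TPM for complex I, 15.0 for its assembly factors, 171 for complex III, 244 for complex IV and 255 for complex V, and *Cycs* was at 30.3 TPM. Assembly factors were thus the lowest group, with *Ndufaf3* at 9.97 TPM and *Ndufaf8* at 51.8 as their ends.

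In complex I, control levels of the members that passed the filter ran from 34.6 TPM for *Ndufs1*, the large iron-sulphur subunit of the NADH-oxidising arm, to 291 ± 8.2 TPM (SD, n = 3) for *Ndufa7*, an accessory subunit, followed by the pseudogene row *Ndufb4c* (264 ± 26.7) and *Ndufa1* (239 ± 23.4). Among the assembly factors *Ndufaf2* (27.6 ± 2.54) and *Ndufaf6* (25.1 ± 3.4) came after *Ndufaf8*. In complex III they ran from 88.7 ± 6 TPM for *Cyc1*, the cytochrome c1 subunit, to 539 ± 35.4 for *Uqcr10*, with *Uqcrq* (473 ± 56.3) and *Uqcrh* (366 ± 27.1) next. In complex IV the leading members were *Cox8a* at 611 ± 27.9, *Cox7c* at 599 ± 30.3 and *Cox4i1* at 587 ± 41.7 TPM, levels that did not differ beyond their spread. The coding *Cox6a1* transcript, in a row outside the symbol rule, stood above them at 903 ± 9.28 TPM. *Atp5b*, the catalytic beta subunit of the ATP synthase, stood highest of all members at 1567 ± 40.6 TPM, above *Atp5md* at 695 ± 87.3 and *Atp5e* at 590 ± 24.6. The deposited length of *Atp5b* was 828 to 886 bases, while its coding transcript in GENCODE M21 has 1916 bases, so that its TPM rests partly on short transcripts of the gene. Its rank depends on that length, and a level at the coding length was not computed.

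Summed over a complex, levels were within a narrow range. All members together reached 17747, 17577 and 16891 TPM in the control replicates, 18205, 17500 and 17685 with the *Slc2a1* gRNA, and 16212, 16620 and 17348 with the 5 gRNAs, which is 1.74%, 1.78% and 1.67% of all transcripts on average. The 5-gRNA values reached up into the range of the control. For complex I the sums were 4680 ± 152 in the control (SD, n = 3), 4560 ± 64.7 with the *Slc2a1* gRNA and 4334 ± 74.3 with the 5 gRNAs, and the highest 5-gRNA value (4419) lay below the lowest control value (4563). For complex IV the sums were 4139 ± 130, 4190 ± 84.1 and 3782 ± 105 TPM in control, *Slc2a1* gRNA and 5-gRNA cultures, and the 5-gRNA values again lay below all control values. Complex III (2134 ± 84.6, 2309 ± 72.3 and 2089 ± 132) and complex V (6254 ± 154, 6535 ± 173 and 6311 ± 294) overlapped between control and 5-gRNA cultures. With the *Slc2a1* gRNA all complex III values (2234 to 2379) lay above all control values (2047 to 2216). These sums are a share of all TPM and move with other abundant RNA: the 13 transcripts of the mitochondrial genome alone summed to 112055 to 243694 TPM. After mitochondrial genome, immunoglobulin and ribosomal RNA genes were left out and TPM rescaled, a check chosen after seeing the data, these separations were gone. Complex I was then at 5891 to 6492 with the 5 gRNAs and 6263 to 6981 in the control, and complex IV at 5112 to 5554 and 5475 to 6233. Complex III was at 3080 to 3427 with the *Slc2a1* gRNA and 2809 to 3188 in the control. On the count scale of edgeR the median log2 fold change of the 5 gRNAs against the control was -0.03 in complex I (16 of 38 positive) and 0.06 in complex IV (9 of 16). No test was run on the sums.

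**Figure D1:**
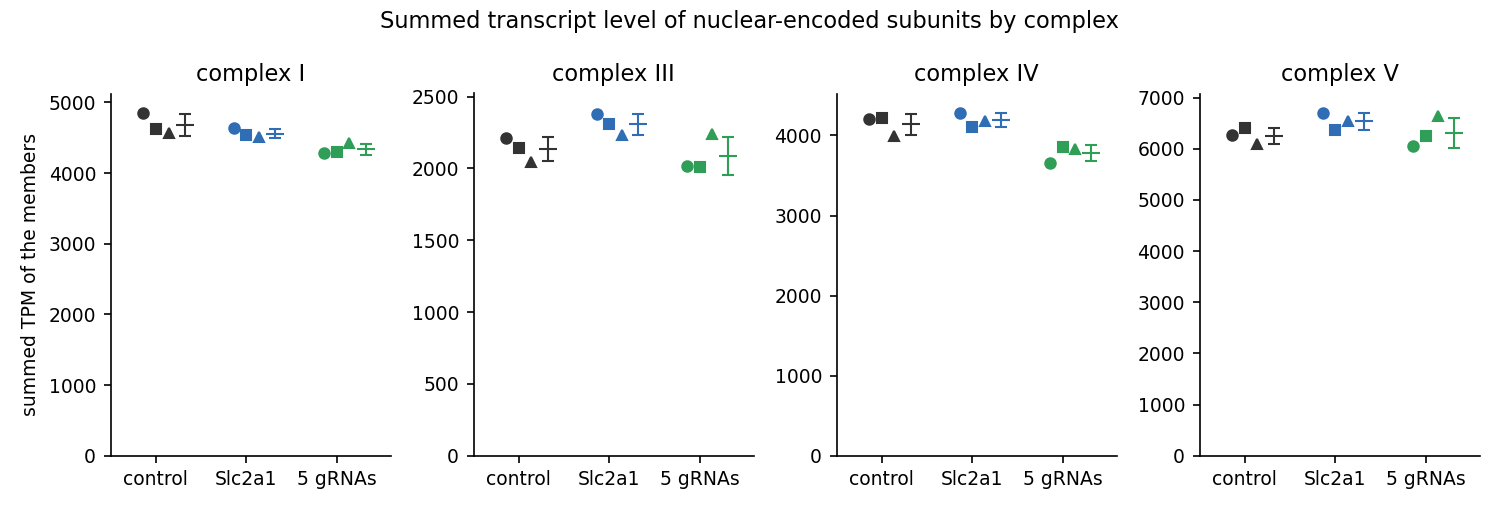
Summed TPM of the members of complexes I, III, IV and V in each of the 9 samples (points), with the mean and SD of each group of 3. On this scale the 5-gRNA points of complexes I and IV lie below all control points, and those of complexes III and V overlap them. Rescaled without mitochondrial genome, immunoglobulin and ribosomal RNA genes, complexes I and IV overlap too. The complex IV sums leave out the coding *Cox6a1* transcript, whose row the symbol rule does not match.

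Several subunits have isoforms from separate genes, and in most of these the isoform known from most tissues prevailed. *Cox4i1* stood at 587 TPM in the control and *Cox4i2*, the form known from lung and low oxygen, at 5.46 ± 1.88. *Cox6b1* was at 250 ± 15.5 TPM and the testis form *Cox6b2* at 0.0455. *Cox7a2* and *Cox7a2l* were at 179 ± 8.12 and 217 ± 8.12 TPM, and the muscle form *Cox7a1* at 2.61 ± 0.359. No count was recorded for *Cox8b* and *Cox8c*, beside *Cox8a* at 611 TPM, or for *Cox7b2*, beside *Cox7b* at 78.4 TPM. *Ndufa4* was at 348 ± 34.7 TPM and *Ndufa4l2*, known to be induced by low oxygen, at 3.17 ± 1.55. Subunit c of the ATP synthase rotor, encoded by 3 genes with 1 mature protein, came from *Atp5g1* (285 ± 15.9), *Atp5g3* (231 ± 5.85) and *Atp5g2* (70.4 ± 15), although reads of *Atp5g2* are shared with an identical row, *Gm10175*, at 464 ± 16.5 TPM.

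COX6A went against this order by row name. *Cox6a2*, the form known from heart and skeletal muscle, was at 309, 268 and 306 TPM in the control cultures, and the row *Cox6a1* at 2.02, 1.02 and 0.716. That row has a deposited length of 620 bases, which matches a retained-intron transcript of the gene in GENCODE M21. The coding transcript, of 571 bases, stands under a transcript identifier that the symbol rule does not match, at 911, 905 and 893 TPM in the control, 766, 738 and 733 with the *Slc2a1* gRNA and 632, 673 and 667 with the 5 gRNAs. So *Cox6a1* was in fact the higher of the pair. As a share of both, *Cox6a2* took 24.6 ± 1.52% in the control (SD, n = 3), 28.7 ± 0.929% with the *Slc2a1* gRNA and 34.4 ± 1.29% with the 5 gRNAs, without overlap between groups. This share was looked at after its values were seen. By edgeR the coding *Cox6a1* row was lower by 0.36 on the log2 scale with the 5 gRNAs than in the control (SE 0.12, adjusted p = 0.0590) and *Cox6a2* higher by 0.31 (SE 0.10, adjusted p = 0.0598), neither past the threshold of 0.05. The *Cox6a2* exons overlap those of *Itgad* over 10.3% of their length.

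**Figure D2:**
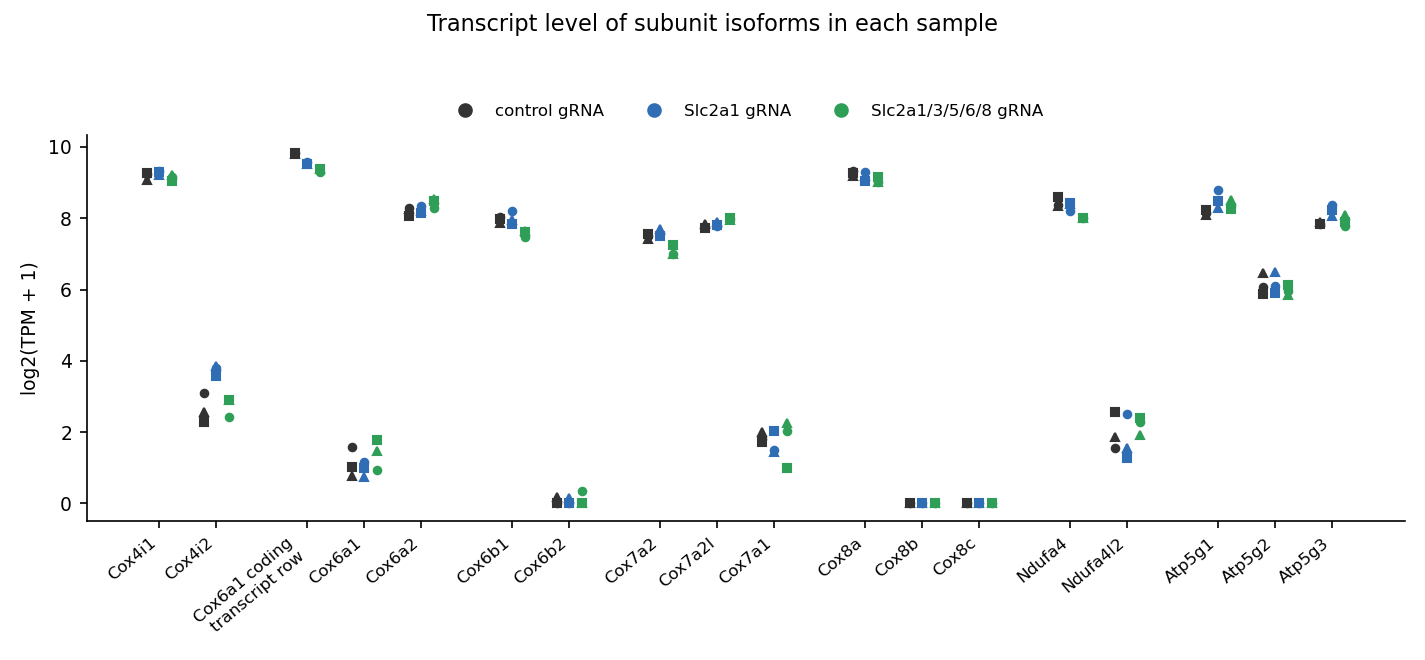
Levels of subunit isoforms as log2(TPM + 1) in each of the 9 samples, with 1 column per gene, colours for the 3 groups and marker shapes for the replicates. *Cox4i1*, *Cox6b1*, *Cox7a2* and *Cox8a* lie far above their counterparts, and *Cox6a2* lies near the other abundant members.

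Other reads were shared as well. *Cycs* is 99.894% identical over 946 bases to the row *Gm10053* (62.7 ± 4.61 TPM in the control), and *Ndufb4* (40.5 ± 4.96 TPM) is identical over 390 bases to the processed pseudogene *Ndufb4c*, itself a member at 264 ± 26.7 TPM. Values of these rows depend on how Salmon divided reads among them. The 8 members that were not tested include *Cox6c2*, *Cox7b2*, *Cox8b*, *Cox8c* and *Ndufs6b*, with no count in any sample. *Cox6b2* had 4 counts and *Ndufb11b* 7 over all samples. *Ndufa11b* had 4, 3 and 10 counts in the control replicates and 0 in each of the other 6 samples. GENCODE M21 lists *Ndufa11b*, *Ndufs6b* and *Cox6c2* as processed pseudogenes, as it does *Ndufb4c*.

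The first comparison asked how transcript levels changed in cultures given the *Slc2a1* gRNA alone. Of 89 members tested, 4 rose and none fell: *Cox4i2* of complex IV, *Ndufb7* and *Ndufa2* of complex I and *Atp5g3* of complex V. This is 4.49% of the members tested, near the 4.64% called among all genes tested (2.25% higher and 2.39% lower). Calls are adjusted p-values under 0.05 by edgeR over all 13834 genes, and without adjustment 16 members were higher and 1 lower at p under 0.05, where 22% of all genes stood (11% higher and 11% lower). Since the study describes a paired test for its RNA-seq samples, the fit held a block for the replicate number. Without it, fewer members and fewer of all genes were called in each comparison, as listed at the end. In bulk RNA, less RNA per cell and fewer cells that express a gene cannot be told apart.

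*Cox4i2* (chr2:152754173-152765037, GRCm38, plus strand) stood at 7.56, 3.92 and 4.90 TPM in the control cultures and at 12.9, 11.0 and 13.5 with the *Slc2a1* gRNA. All *Slc2a1* gRNA values were above all control values. The log2 fold change was 1.36 (SE 0.26, adjusted p = 0.0170, edgeR), that is 2.57-fold on 59 to 111 counts per control sample, and it was the sole member past 1.5-fold. Its abundant counterpart *Cox4i1* differed by 0.23 (SE 0.14, adjusted p = 0.359).

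*Ndufb7* (chr8:83566671-83571626, plus strand), an accessory complex I subunit facing the intermembrane space, was at 108, 95.5 and 90.7 TPM in the control and 134, 123 and 115 with the *Slc2a1* gRNA. Its log2 fold change was 0.50 (SE 0.11, adjusted p = 0.0301). *Ndufa2*, an accessory subunit of the matrix arm, was at 157, 139 and 150 TPM in the control and 200, 177 and 173 with the gRNA, a log2 fold change of 0.45 (SE 0.11, adjusted p = 0.0336). Neither pair of groups overlapped. The exons of *Ndufa2* overlap those of *Tmco6* over 11.5% of their length, and whether counting used the strand is not stated.

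*Atp5g3* (chr2:73908447-73911326, minus strand), of the genes for ATP synthase subunit c, was at 227, 228 and 238 TPM in the control and 332, 299 and 269 with the *Slc2a1* gRNA, again without overlap. Its log2 fold change was 0.53 (SE 0.13, adjusted p = 0.0352). The other genes for that subunit differed by 0.48 (*Atp5g1*, SE 0.14, adjusted p = 0.0656) and 0.18 (*Atp5g2*, SE 0.15, adjusted p = 0.507). *Uqcrq*, a small complex III subunit, was close to the threshold at 533, 467 and 421 against 653, 625 and 537 TPM (log2 fold change 0.56, SE 0.15, adjusted p = 0.0557). On the other side, the assembly factor *Ndufaf3* was at 11.0, 10.1 and 8.86 TPM against 6.04, 6.03 and 6.41 (log2 fold change -0.57, adjusted p = 0.0821).

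Beyond these, small positive values prevailed. With the *Slc2a1* gRNA 77 members had a positive and 12 a negative log2 fold change, with a median of 0.17 against -0.00 over all genes tested. The median was 0.16 in complex I (35 of 38 positive), 0.14 in its assembly factors, 0.22 in complex III (8 of 9), 0.17 in complex IV (13 of 16) and 0.19 in complex V (15 of 17). Without *Slc2a1* gRNA replicate 2 it was 0.078 in complex I and 0.099 in complex III. Without *Slc2a1* gRNA replicate 3 it was 0.0088 in the assembly factors. Without control replicate 2 these 3 medians were higher, at 0.21, 0.28 and 0.22. Within the same-numbered pairs of samples the members' median was 0.12, 0.16 and 0.24. For 69 of 89 members the 95% interval lay within 1.5-fold in either direction.

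**Figure D3:**
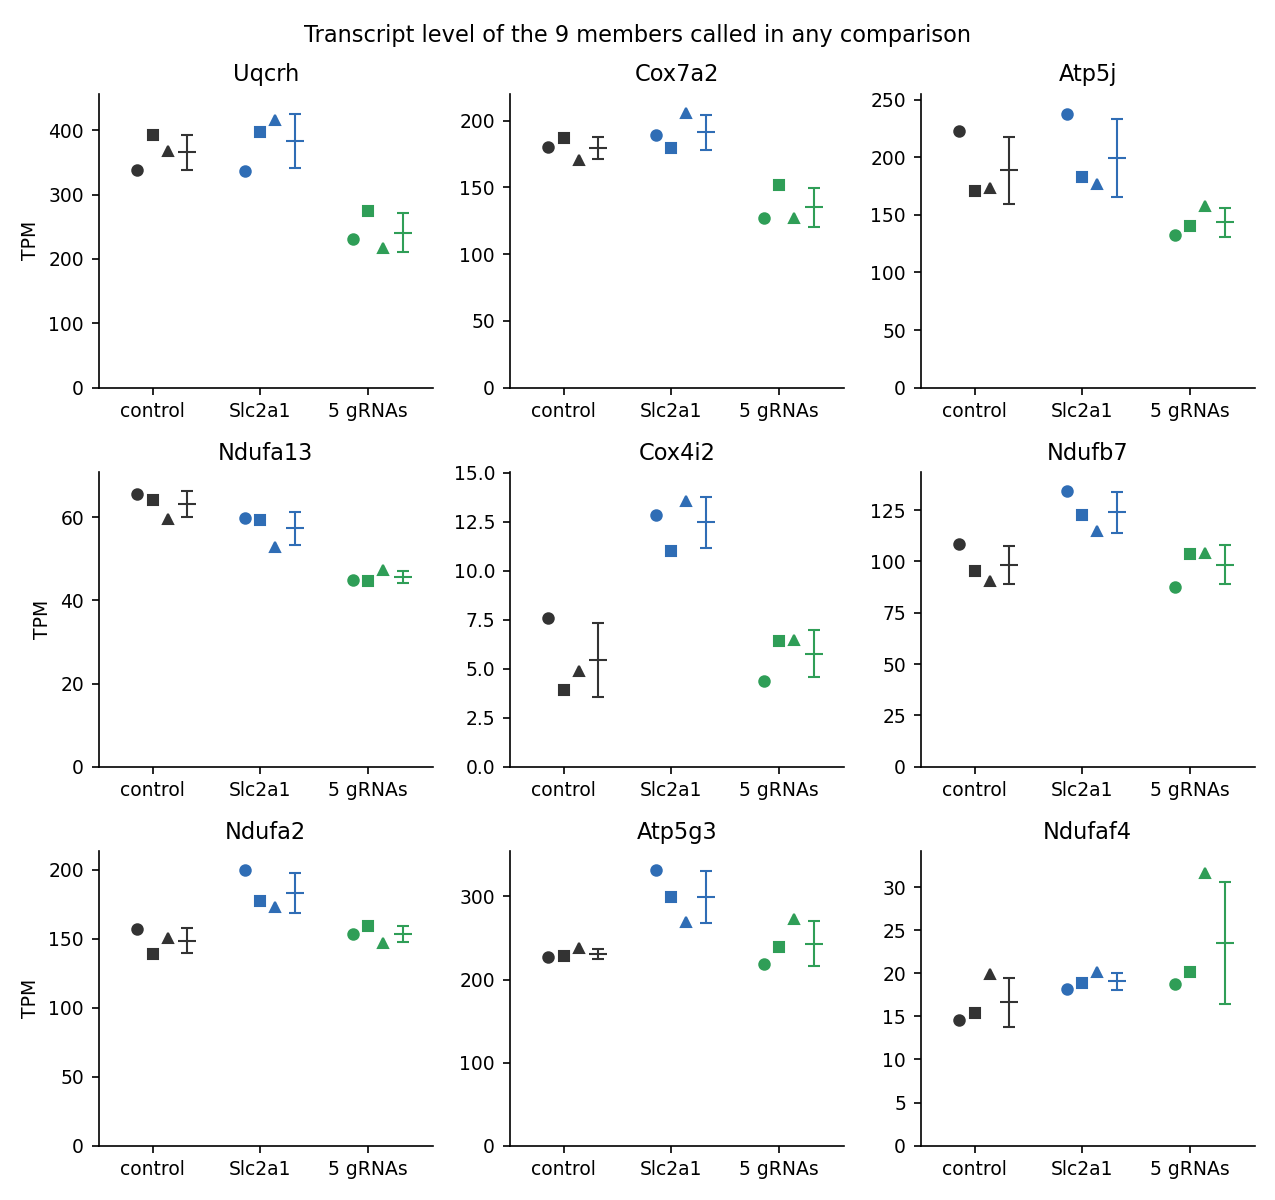
TPM in each of the 9 samples (points), with the mean and SD of each group of 3, for the 9 members called in any comparison. *Cox4i2*, *Ndufb7*, *Ndufa2* and *Atp5g3* are highest with the *Slc2a1* gRNA, *Uqcrh*, *Cox7a2*, *Atp5j* and *Ndufa13* lowest with the 5 gRNAs, and *Ndufaf4* is widest with the 5 gRNAs.

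The size of this shift depended on the scale. Under total count normalization the members' median was 0.08, while all genes were at -0.10, and with limma on log2(TPM + 1) it was 0.02 with all genes at -0.11. Complex I had a median of -0.04 there. Member transcripts are short, with a median of 727 bases against 2354 over all genes tested, and 75.3% of them were under 1 kb against 11.5%. Among 45 members and 1083 other genes between 566 and 977 bases, the medians were 0.18 and 0.08. With a correction for gene length the members' median was 0.10. For comparison, the cytosolic ribosomal proteins had a median of 0.27 with the *Slc2a1* gRNA (1 of 74 called by edgeR, 29 at unadjusted p under 0.05). The mitochondrial ribosomal proteins had a median of 0.16 (0 of 78 called by edgeR, 20 at unadjusted p under 0.05). Of all genes tested, 4.64% were called and 22% had an unadjusted p under 0.05. With the 5 gRNAs against the control these lists were at 0.18 and 0.14, where the members were at 0.01. The part of transcript length in the members' values was not tested further.

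**Figure D4:**
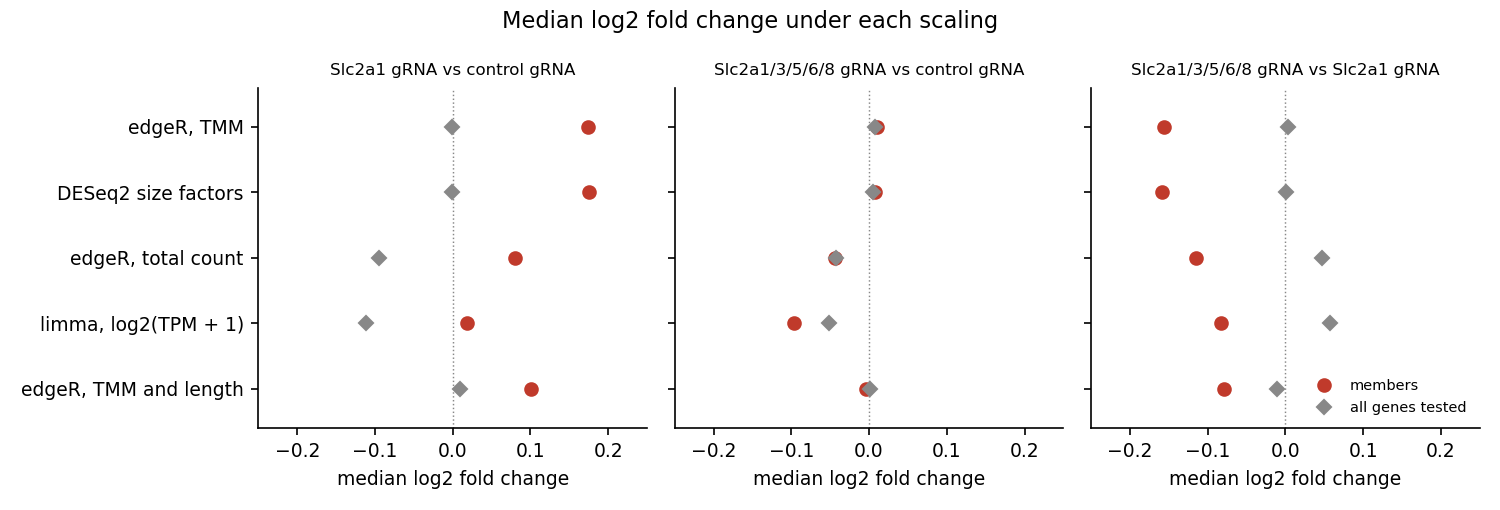
Median log2 fold change of the members and of all genes tested under each scaling, for each comparison in 1 panel. With the *Slc2a1* gRNA the members lie to the right of all genes under each scaling, between 0.02 and 0.18, and against the control the 5-gRNA medians lie at or left of 0.01.

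Leaving out single libraries moved the count of called members. It was 1 without control replicate 1 and 0 without control replicate 2 or 3 or without *Slc2a1* gRNA replicate 1 or 2, and it was 9 and 8 without 5-gRNA replicate 1 and 2, which enter through the shared estimate of the spread. The share of all genes called moved with it, from 0.0773% to 8.88% over these 7 fits. None of the 4 changed direction under an alternative. Limma called no member, with few or no calls among all genes, and other alternatives gave more or fewer calls, as listed at the end.

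The second comparison set the 5-gRNA cultures against the control. Here 1 member rose, *Ndufaf4*, and 2 fell, *Uqcrh* and *Ndufa13*. That is 3.37% of 89, beside 15.9% called among all genes tested (8.49% higher and 7.44% lower), and the difference of these shares was not tested. At unadjusted p under 0.05, 7 members were higher and 8 lower, where 31.4% of all genes stood (16.7% higher and 14.7% lower). The median was 0.01, with 45 positive and 44 negative values. It was -0.03 in complex I, 0.05 in its assembly factors, 0.06 in complex III, 0.06 in complex IV and 0.04 in complex V, and for 73 members the 95% interval lay within 1.5-fold in either direction.

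*Uqcrh* (chr4:116066965-116075071, minus strand), the hinge protein that sits beside cytochrome c1 in complex III, was at 338, 392 and 368 TPM in the control, 336, 397 and 415 with the *Slc2a1* gRNA and 231, 274 and 218 with the 5 gRNAs. Each 5-gRNA value lay under every other value. It fell by 0.50 on the log2 scale against the control (SE 0.13, adjusted p = 0.0240), that is to 0.708-fold. The other 8 genes of complex III did not pass the threshold, and *Uqcrq* and *Cyc1* had positive values of 0.43 (adjusted p = 0.0718) and 0.19 (adjusted p = 0.359).

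*Ndufa13* (chr8:69894180-69902558, minus strand), a complex I accessory subunit also known as GRIM-19, was at 65.6, 64.3 and 59.7 TPM in the control, 59.9, 59.3 and 52.9 with the *Slc2a1* gRNA and between 44.7 and 47.4 (45.7 ± 1.46, SD, n = 3) with the 5 gRNAs. The 5-gRNA cultures were again lowest without overlap, and the log2 fold change against the control was -0.40 (SE 0.12, adjusted p = 0.0447). Its exons overlap in part those of *Tssk6*.

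*Ndufaf4* (chr4:24898083-24905001, plus strand), an assembly factor of complex I, was at 14.6, 15.4 and 19.9 TPM in the control and 18.8, 20.2 and 31.6 with the 5 gRNAs. The groups overlapped in TPM, and replicate 3 was highest in both. The value was higher in 3 of 3 same-numbered pairs, although the numbers were not shown to pair samples. The log2 fold change was 0.60 (SE 0.12, adjusted p = 0.00752, edgeR), or 1.52-fold. Without 5-gRNA replicate 3 it was 0.52 (adjusted p = 0.0504). *Ndufaf3*, which is known to act together with NDUFAF4, was at 6.49, 6.44 and 7.22 TPM, against 11.0, 10.1 and 8.86 in the control (log2 fold change -0.53, adjusted p = 0.0559).

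The replicates of the 5-gRNA cultures were not alike in these genes. Against the control of the same number, the members' median was 0.16 in replicate 1, -0.25 in replicate 2 and 0.16 in replicate 3, with 59, 13 and 62 of 89 members higher, while all genes were near 0. Without 5-gRNA replicate 2 the median was 0.13 and 8 members were called (8.99%, beside 12.9% of all genes in that fit), all higher. Without replicate 1 there were 7 calls (7.87%, beside 16.6%), and without replicate 3 none (beside 6.13%). Without control replicate 1, 2 and 3 there were 0, 1 and 1, where 4.45%, 6.99% and 5.16% of all genes were called.

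The third comparison set the 5-gRNA cultures against the *Slc2a1* gRNA cultures, and so concerns the further transporters and the history of that line. Of 89 members none rose and 4 fell: *Uqcrh*, *Cox7a2*, *Atp5j* and *Cox4i2*. This is 4.49%, against 2.31% called among all genes tested (1.36% higher and 0.947% lower), and at unadjusted p under 0.05 by edgeR 1 member was higher and 25 were lower, where 19.1% of all genes stood (10.4% higher and 8.68% lower). The median was -0.16, with 21 positive and 68 negative values, and for 66 members the 95% interval lay within 1.5-fold in either direction. It was -0.16 in complex I, -0.13 in complex III, -0.18 in complex IV and -0.21 in complex V, and 0.04 in the assembly factors. This comparison shares its samples with the others, so its values are no further support for them.

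*Uqcrh* fell by 0.72 on the log2 scale (SE 0.13, adjusted p = 0.0168), from 383 ± 41.5 TPM (SD, n = 3) to 241 ± 29.7. *Cox7a2* (chr9:79755361-79759878, minus strand), the common COX7A isoform, was at 189, 179 and 205 TPM with the *Slc2a1* gRNA, 127, 152 and 127 with the 5 gRNAs, and 180, 187 and 171 in the control. Both lay lowest in the 5-gRNA cultures with no overlap with either group. The log2 fold change of *Cox7a2* was -0.58 (SE 0.12, adjusted p = 0.0249) against the *Slc2a1* gRNA cultures and -0.33 (adjusted p = 0.0689) against the control.

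*Atp5j* (chr16:84827866-84835625, minus strand), the F6 subunit of the peripheral stalk of the ATP synthase, was at 238, 183 and 177 TPM with the *Slc2a1* gRNA, 133, 140 and 158 with the 5 gRNAs and 222, 171 and 173 in the control. It fell by 0.55 (SE 0.12, adjusted p = 0.0312). Its exons overlap over 12.7% of their length those of *Gabpa*, which starts next to it. *Cox4i2* was at 4.36, 6.41 and 6.47 TPM with the 5 gRNAs against 12.9, 11.0 and 13.5, a log2 fold change of -1.20 (SE 0.26, adjusted p = 0.0324). The 5-gRNA values fell within the control range of this gene. *Ndufa4*, not past the threshold, was at 256, 256 and 255 TPM with the 5 gRNAs against 295, 343 and 335 (log2 fold change -0.39, SE 0.15, adjusted p = 0.181).

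Here too 5-gRNA replicate 2 stood apart. Its median against the same-numbered *Slc2a1* gRNA sample was -0.40, with 82 of 89 members lower, against 0.03 and -0.08 for replicates 1 and 3. Without it the median was -0.03 and no member was called, beside 0.929% of all genes, where the reported fit called 2.31%. No member was called either without *Slc2a1* gRNA replicate 2 or 3, and 2 were called without *Slc2a1* gRNA replicate 1 or control replicate 3. The range over all fits that left out a sample is given at the end. As the calls among all genes also change when a library is left out, these counts are not read as a result about the members.

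**Figure D5:**
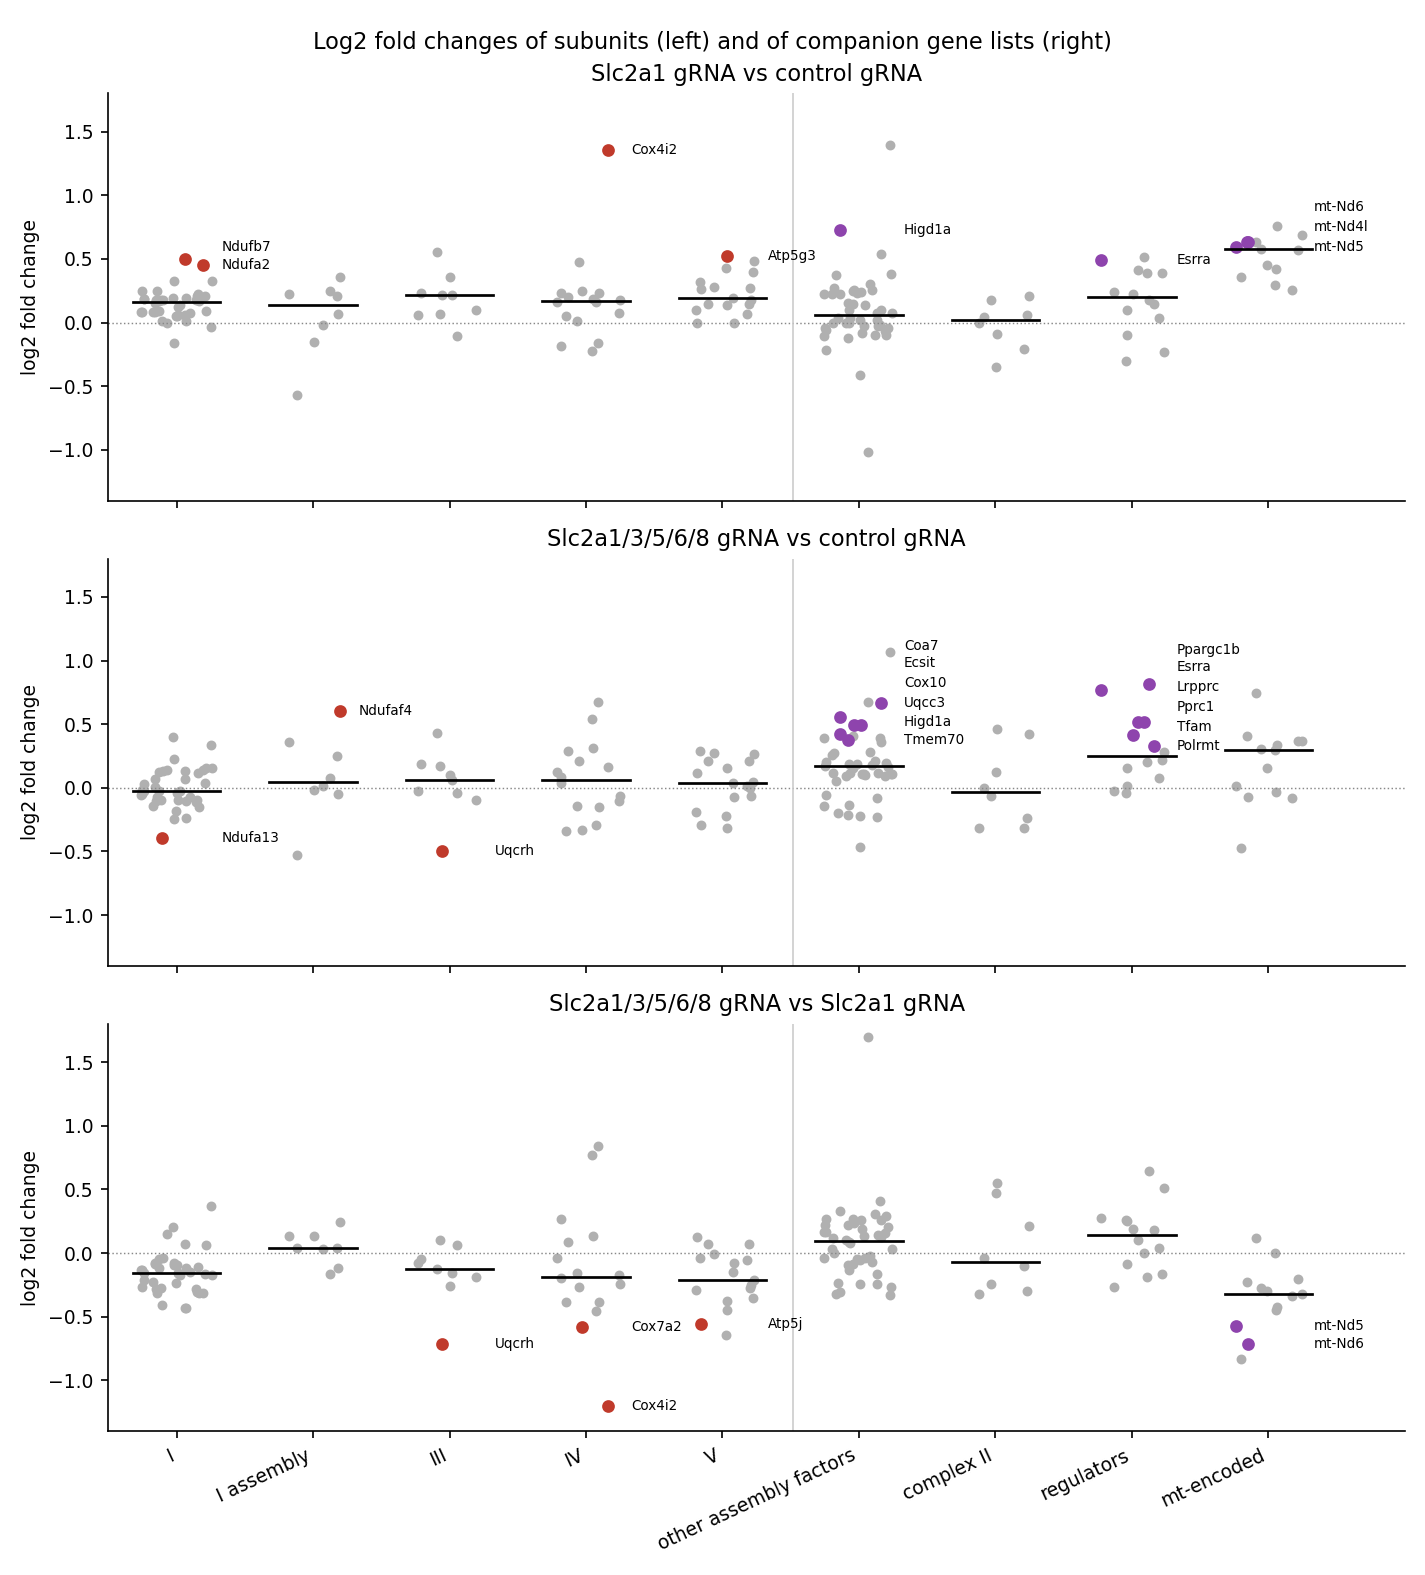
Log2 fold change of each member by complex (left of the vertical line) and of the companion gene lists (right) in each comparison, with larger coloured and named points for adjusted p under 0.05 and bars for medians. Medians of the complexes lie between 0.14 and 0.22 with the *Slc2a1* gRNA and near 0 for the 5 gRNAs against the control.

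Other genes of the pathway were taken from lists. Of 15 regulators of respiratory genes, 14 were tested, *Ppargc1a* being too low. With the 5 gRNAs 6 rose against the control and none fell (42.9%, beside 15.9% called among all genes tested, 8.49% higher and 7.44% lower), with a median of 0.25. The largest values were those of *Ppargc1b* (log2 fold change 0.82, SE 0.17, adjusted p = 0.00796), a coactivator of mitochondrial genes at 2.32 TPM in the control, and *Esrra* (0.77, SE 0.12, adjusted p = 0.00156), the nuclear receptor ERRα through which such coactivators act. *Esrra* was at 25.5, 24.2 and 30.5 TPM in the control, 32.1, 29.9 and 31.7 with the *Slc2a1* gRNA and 38.1, 37.0 and 44.9 with the 5 gRNAs, so that only control and *Slc2a1* gRNA cultures overlapped. It was also the regulator called with the *Slc2a1* gRNA (0.49, SE 0.12, adjusted p = 0.0327), and its call against the control with the 5 gRNAs held under each of the 20 alternatives run.

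*Pprc1*, a further coactivator of this family, rose by 0.51 (adjusted p = 0.0211) and *Lrpprc*, which stabilises mitochondrial messenger RNA, by 0.52 (adjusted p = 0.0323). *Tfam*, which packages and transcribes mitochondrial DNA, rose by 0.41 (adjusted p = 0.0339), at 35.4, 36.4 and 53.0 TPM in the control and 36.4, 46.3 and 79.7 with the 5 gRNAs, overlapping ranges. *Polrmt*, the mitochondrial RNA polymerase, rose by 0.33 (adjusted p = 0.0475), with a value of -0.07 by limma on TPM. The factors whose motifs were searched had values of 0.02 (*Nrf1*), 0.08 (*Gabpa*) and 0.15 (*Yy1*), and none was called. Without 5-gRNA replicate 3, 1 of the 14 regulators was called, and by limma on log2(TPM + 1) also 1. The share of all genes called was lower in both of these fits too, from 15.9% in the reported fit.

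Of 44 assembly factors outside the symbol rule, 6 (13.6%) rose with the 5 gRNAs and none fell, with a median of 0.17. This share is near that of all genes tested, of which 15.9% were called (8.49% higher and 7.44% lower). They were *Ecsit* of complex I (0.56, adjusted p = 0.0102), *Uqcc3* of complex III (0.49, adjusted p = 0.0275), *Cox10* (0.49, adjusted p = 0.0187), *Coa7* (0.67, adjusted p = 0.0204) and *Higd1a* (0.43, adjusted p = 0.0464) of complex IV, and *Tmem70* of complex V (0.38, adjusted p = 0.0304). Without 5-gRNA replicate 3 there were 2 calls, without control replicate 1, 2 and 3 there were 0, 1 and 0, and by limma 0. The share of all genes called was also below 15.9% in each of these fits, as given with the counts of members. With the *Slc2a1* gRNA *Higd1a*, known to be induced by low oxygen, was the sole one called (0.73, SE 0.13, adjusted p = 0.0146). That is 2.27% of 44, beside 4.64% of all genes tested. *Higd1a* was at 53.7, 39.2 and 32.0 TPM in the control and 78.2, 51.0 and 50.4 with the gRNA. The member *Ndufa4l2*, also known to be induced by low oxygen, was not called with that gRNA (-0.16, adjusted p = 0.833, edgeR). Between the edited cultures no regulator and no assembly factor was called by edgeR. At unadjusted p under 0.05 there were 5 of 14 and 6 of 44, beside 19.1% of all genes, and DESeq2 called 1 and 0.

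Complex II is wholly encoded in the nucleus and passes electrons from succinate. Its list of 8 genes held both its subunits and its assembly factors, and edgeR called none in any comparison. At unadjusted p under 0.05 there were 1, 3 and 5 of them in the 3 comparisons in the order above, beside 22%, 31.4% and 19.1% of all genes, and DESeq2 called 0, 1 and 1. The 13 messenger RNAs of the mitochondrial genome had a median of 0.58 with the *Slc2a1* gRNA, where *mt-Nd4l*, *mt-Nd5* and *mt-Nd6* rose (3 of 13, beside 4.64% of all genes tested), and of 0.30 with the 5 gRNAs against the control, where none was called (3 at unadjusted p under 0.05, 1 by DESeq2). Between the edited cultures *mt-Nd5* and *mt-Nd6* fell (2 of 13, beside 2.31%). The count of calls with the *Slc2a1* gRNA changed when a library was left out. There were 0 without any of the control replicates or without *Slc2a1* gRNA replicate 2, 1 without *Slc2a1* gRNA replicate 1 or 3, and 7 and 9 without 5-gRNA replicate 1 and 2. Between the edited cultures there were 0 without *Slc2a1* gRNA replicate 2 or 3 or 5-gRNA replicate 2 or 3, 1 without any of the control replicates, and 7 without 5-gRNA replicate 1. Against the control with the 5 gRNAs there were 7 and 2 without 5-gRNA replicate 2 and 1, and 1 without control replicate 2. Limma called 0 throughout. The share of all genes called moved between such fits too, so these counts are not read as a result about this list. The 7 core complex I subunits encoded in the nucleus had medians of 0.08, 0.01 and -0.08, and none had an unadjusted p under 0.05.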

How the data were processed

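RNA-seq was analysed from 9 samples of 5TGM1-Cas9 cultures, 3 per group, grouped by their labels. Per the study's methods, RNA was reverse transcribed with oligo-dT primers and sequenced as paired 150 bp reads. The submitters' processing notes name Salmon 1.5.1. For each sample the authors deposited estimated counts and TPM by gene, with lengths and effective lengths that were used here for length checks alone. Annotation and strand settings are not given in the sources used here. GENCODE M21 on GRCm38 served for coordinates and exon overlap (93 of 97 members matched).

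The estimated counts were rounded and tested by the quasi-likelihood test of edgeR 4.0.16 in R 4.3.3. TMM normalization and filterByExpr were used, the fit held all 9 samples with a block for the replicate number, and p-values were adjusted by Benjamini-Hochberg over 13834 genes, with calls under 0.05. Standard errors came from the F statistic. The fit was tested on simulated data. Estimated counts ran from 21838800 to 30537100 per sample, and replicates differed by more than sampling noise. TPM, as the authors scaled it, was used for levels.

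Members and gene lists were chosen with earlier results of these data known. Named are up to 5 called members per complex and comparison by adjusted p, the 3 highest of each complex in the control, isoform groups, *Cyc1*, *Cycs*, members without counts, and up to 5 called genes per list. Other genes (*Ndufaf3*, *Ndufs1*, *Ndufa11b*, *Ndufb11b*, *Ndufb4*, *Polrmt*, *Nrf1*, *Gabpa* and *Yy1*, and the levels of *Cox6a1* under its transcript row) were chosen after their values were seen. Alternatives were DESeq2 1.42.0, limma 3.58.1 on log2(TPM + 1) and log2(TPM + 0.1), total count normalization, a fit with no replicate block, another filter (none, or 10 counts in all samples), a fit of the compared groups alone, at least 1.5-fold, a length correction, added -ps rows, added near-identical rows, sums by complex without abundant RNA of other kinds (both chosen after seeing the data), and leaving out each sample.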

Additional observations from a re-analysis of the deposited data

Results flagged for a closer look

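The effect of the 5 gRNAs and that of the *Slc2a1* gRNA, both taken against the control, differed for 4 members. The test of the difference is the third comparison of the report, 5 gRNAs against *Slc2a1* gRNA (edgeR, adjusted over 13834 genes), and adds no evidence to it. The difference, 5 gRNAs minus *Slc2a1* gRNA on the log2 scale, was -0.72 for *Uqcrh* (adjusted p = 0.0168), -0.58 for *Cox7a2* (adjusted p = 0.0249), -0.55 for *Atp5j* (adjusted p = 0.0312) and -1.20 for *Cox4i2* (adjusted p = 0.0324). *Uqcrh* was lower in 3 of 3 same-numbered comparisons, although the numbers were not shown to pair samples. For *Cox4i2* the 5-gRNA cultures were near the control and the *Slc2a1* gRNA cultures above it, and for *Uqcrh* and *Cox7a2* the 5-gRNA cultures lay below both. None of the 4 was called without 5-gRNA replicate 2, without *Slc2a1* gRNA replicate 2 or 3, or by limma. Groups of 3 were not examined for single samples that stand apart by a formal rule.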

How the results depend on the processing

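Called members with the *Slc2a1* gRNA against the control (4 by the reported fit) were 9 by DESeq2 (10.3% of members, beside 10.7% of all genes in that fit), 2 by total count normalization (2.25%, 5.33%), 9 without a filter (9.78%, 5.47%), 7 with at least 10 counts (8.05%, 6.94%), 17 with only the groups compared (19.3%, 16.7%), 0 by limma with either pseudocount (all genes 0% and 0.376%), 7 with the length correction (7.87%, 7.78%) and 1 at 1.5-fold (all genes 2.93%). The median over all members tested, 0.17, was 0.0795 by total count normalization, 0.0178 and 0.0175 by limma with pseudocounts of 1 and 0.1 and 0.10 with the length correction. For the 5 gRNAs against the control (3) the counts were 7 by DESeq2 (all genes 18.6%), 6 without a filter (10.4%), 5 with at least 10 counts (20.3%), 1 by limma with either pseudocount (3.13% and 3.34%), 9 with the length correction (20.6%) and 1 at 1.5-fold (8.25%). Against the *Slc2a1* gRNA cultures (4) they were 10 by DESeq2 (all genes 6.49%), 10 without a filter (3.68%), 2 with only the groups compared (0.883%), 0 by limma (0.224% and 0.231%) and 2 at 1.5-fold (1.63%). Without the replicate block the 3 counts were 2, 2 and 2 (all genes 3.86%, 13.6% and 0.932%). Same-numbered samples correlated at 0.1 to 0.189, -0.0590 to 0.155 and -0.0922 to -0.0213 in the 3 comparisons. Samples of different number averaged -0.0693, -0.0350 and 0.0264. The numbers were thus not shown to pair samples in all comparisons. The block was part of the planned fit because the study describes a paired test for its RNA-seq samples, and it was kept. Leaving out a sample gave 0 to 9, 0 to 8 and 0 to 6 calls, and medians from 0.11 to 0.22, -0.07 to 0.13 and -0.24 to -0.03. *Polrmt* was reversed by limma with the 5 gRNAs (-0.0678 and -0.0726 with pseudocounts of 1 and 0.1). Leaving out mitochondrial genome, immunoglobulin and ribosomal RNA genes, the summed TPM were 24894 ± 1497, 25380 ± 935 and 23619 ± 841 in control, *Slc2a1* gRNA and 5-gRNA cultures. The cause of these shifts was not tested. No called member changed direction under any alternative. The median standard error of a member was 0.124 on the log2 scale with the *Slc2a1* gRNA against the control, which limits what 3 samples per group can show.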
